A study of Mus musculus with 12 samples.

Results

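The C-type lectin receptor genes Clec4a1, Clec4a2, Clec4a3, Clec4d, Clec4e, Clec4n, Clec5a, Clec7a, Clec9a and Clec12a were followed across sorted cells of mouse glioma and blood. They were taken by name, from probe sets of the array whose annotation gives only that gene, and all 10 of 10 were found, each with 1 probe set, among 19938 genes with a symbol of their own. Affymetrix Mouse Gene 1.0 ST arrays had been run on flow-sorted populations, 1 array for each of 12 conditions, so no comparison has a replicate or a p-value. Microglia (MG, sorted as CD11b+/CD45low) and macrophages (MP, sorted as CD11b+/CD45high) came from normal brain and from brain bearing GL261, a mouse glioma line that grows in C57BL/6 mice. Gr1+ and Gr1- cells were taken from tumor brain and from blood of mice with tumors. Populations labelled blood macrophage high and low came from tumor-bearing and from normal mice, and the sources used here do not say which marker high and low refer to. The labels give an age of 7 weeks and the strain C57BL/6 for all 12 samples, and 2 weeks of tumor growth. Their growth protocol mentions GL261 implantation for the 4 normal samples too, although their disease state is normal, and they are called normal here. Whether a sample was 1 animal or a pool is not given in the sources used here.

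C-type lectin receptors sit on the surface of myeloid cells and bind sugars, lipids or products of dead cells. One group activates the cell. Mincle (Clec4e), MCL (Clec4d) and dectin-2 (Clec4n) pair with the Fc receptor gamma chain (Fcer1g), MDL-1 (Clec5a) pairs with DAP12 (Tyrobp), and dectin-1 (Clec7a) and DNGR-1 (Clec9a) carry an activating tail of their own. All of these pass the signal to the kinase Syk, and for several of them it goes on through Card9 to NF-kB. A second group inhibits, among them MICL (Clec12a) and DCIR (Clec4a2), whose tails recruit the phosphatases SHP-1 and SHP-2, encoded by Ptpn6 and Ptpn11. Clec4a1 and Clec4a3 are close relatives of DCIR.

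All 10 genes lie on mouse chromosome 6 in the RefSeq annotation of GRCm38.p6. Clec4a1, Clec4a3, Clec4a2, Clec4n, Clec4d and Clec4e follow each other in this order, with only the relatives Clec4a4, Clec4b1 and Clec4b2 between them. Clec12a, Clec9a and Clec7a form another run 102 coding genes further on, and Clec5a stands apart, 628 coding genes from the next of the 10. Promoter windows of 300 bases, from 250 bases before to 50 bases after the annotated start, were matched for 9 of the 10 genes, with 11 windows in all. The 3 stretches of 250 bases before the start that follow belong to Clec4d and Clec4e, which are neighbours and had the most similar pattern of any pair of these genes, and to Clec12a, which was below background on normal MG and above it on tumor MG and whose window held both motifs named next. Each is printed in the direction of its gene. Capitals mark GAGGAA (or TTCCTC, the same letters on the other strand), the core of the site of the myeloid factor PU.1, and TTGCNNAA on either strand, a pair of half-sites of the C/EBP factors.
Clec4d (chr6:123261857-123262106, plus strand): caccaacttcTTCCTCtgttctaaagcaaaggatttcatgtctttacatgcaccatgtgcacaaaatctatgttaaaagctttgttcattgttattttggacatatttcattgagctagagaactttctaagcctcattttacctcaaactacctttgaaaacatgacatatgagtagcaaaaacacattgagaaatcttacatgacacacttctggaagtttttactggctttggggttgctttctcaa
Clec4e (chr6:123289872-123290121, minus strand): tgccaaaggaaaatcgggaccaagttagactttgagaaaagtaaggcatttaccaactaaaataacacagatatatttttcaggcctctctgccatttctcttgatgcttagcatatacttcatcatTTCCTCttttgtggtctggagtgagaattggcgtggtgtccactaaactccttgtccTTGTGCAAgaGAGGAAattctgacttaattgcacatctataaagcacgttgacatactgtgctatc
Clec12a (chr6:129349994-129350243, plus strand): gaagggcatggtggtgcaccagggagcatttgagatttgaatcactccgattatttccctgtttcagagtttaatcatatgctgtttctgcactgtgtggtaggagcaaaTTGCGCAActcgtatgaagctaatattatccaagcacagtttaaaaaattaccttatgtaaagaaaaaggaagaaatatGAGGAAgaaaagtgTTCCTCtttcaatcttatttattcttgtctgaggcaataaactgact
GAGGAA occurred on either strand in 8 of the 11 windows, belonging to 7 of the 9 genes, and in 28.3% of 32851 windows of the same length over all genes. Clec7a has 2 of these 8 windows, which overlap and hold the same match. TTGCNNAA occurred in 2 of the 11 windows, those of Clec4e and Clec12a, and in 10.8% of all windows. The windows of Clec4a2 and Clec9a held neither. These are matches of letters and no binding was measured.

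Values are log2 signals as deposited. The background level of an array was the 95th percentile over 1027 genes for olfactory receptors, taken as genes that these cells do not use, and ran from 8.93 to 10.09. A value under it is called below background, and where the dimmer of 2 arrays is below background the fold is given as at least the ratio of the brighter value to that array's background level. The share of all genes above background ran from 11.2% to 39.1%. Over the 10 comparisons among brain and Gr1 arrays described below, the differences of the olfactory receptor genes had an SD between 0.35 and 0.48 on the log2 scale. In such bulk samples, fewer cells of a type and less RNA per cell cannot be told apart.

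Before the lectins, 3 arrays stand out against their labels. On the blood Gr1- array all 12 microglia markers were above background, and its values correlated at r = 0.962 over all genes with those of tumor MP. Tumor-bearing blood macrophage low and normal blood macrophage high had 12 and 9 of 12 NK cell markers above background, against 0 on the other blood arrays, and 0 of the 10 lectins on either. B cell markers were above background on all 4 blood macrophage arrays, with 6 to 8 of 8, and on blood Gr1- cells, with 6 of 8. Blood Gr1+ cells had 1 of these 8 and each brain array 0 or 1. Tumor-bearing blood macrophage high resembled normal blood macrophage low instead (r = 0.915). Normal blood macrophage high also had the highest background level of the 12, 10.09, the smallest share of genes above it, 11.2%, and correlations of 0.467 to 0.732 with the other 11 arrays. The remaining 9 arrays are used beside the full set where a value rests on these 3. Other populations differed in their markers as well. All 12 microglia markers were also above background on tumor MP, normal MP and tumor Gr1- cells, and 11 of 12 on tumor MG. Their median on tumor MP, sorted as macrophages, was 11.94, against 11.75 on tumor MG and 10.89 on normal MP. Neutrophil markers, 17 in all, were above background for 12 genes on normal MP, 12 on blood Gr1+, 12 on tumor-bearing blood macrophage high and 10 on normal blood macrophage low, and for 0 to 2 on each of the other 8 arrays. Of 7 markers of neurons, astrocytes and oligodendrocytes, 3 were above background on blood Gr1+ and 3 on blood Gr1- cells. Tumor Gr1+ cells had 2 of these 7 and each blood macrophage array 0. The brightest on blood Gr1+ was Slc1a2, at 11.35, against 9.70 on tumor Gr1+ cells.

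**Figure D1:**
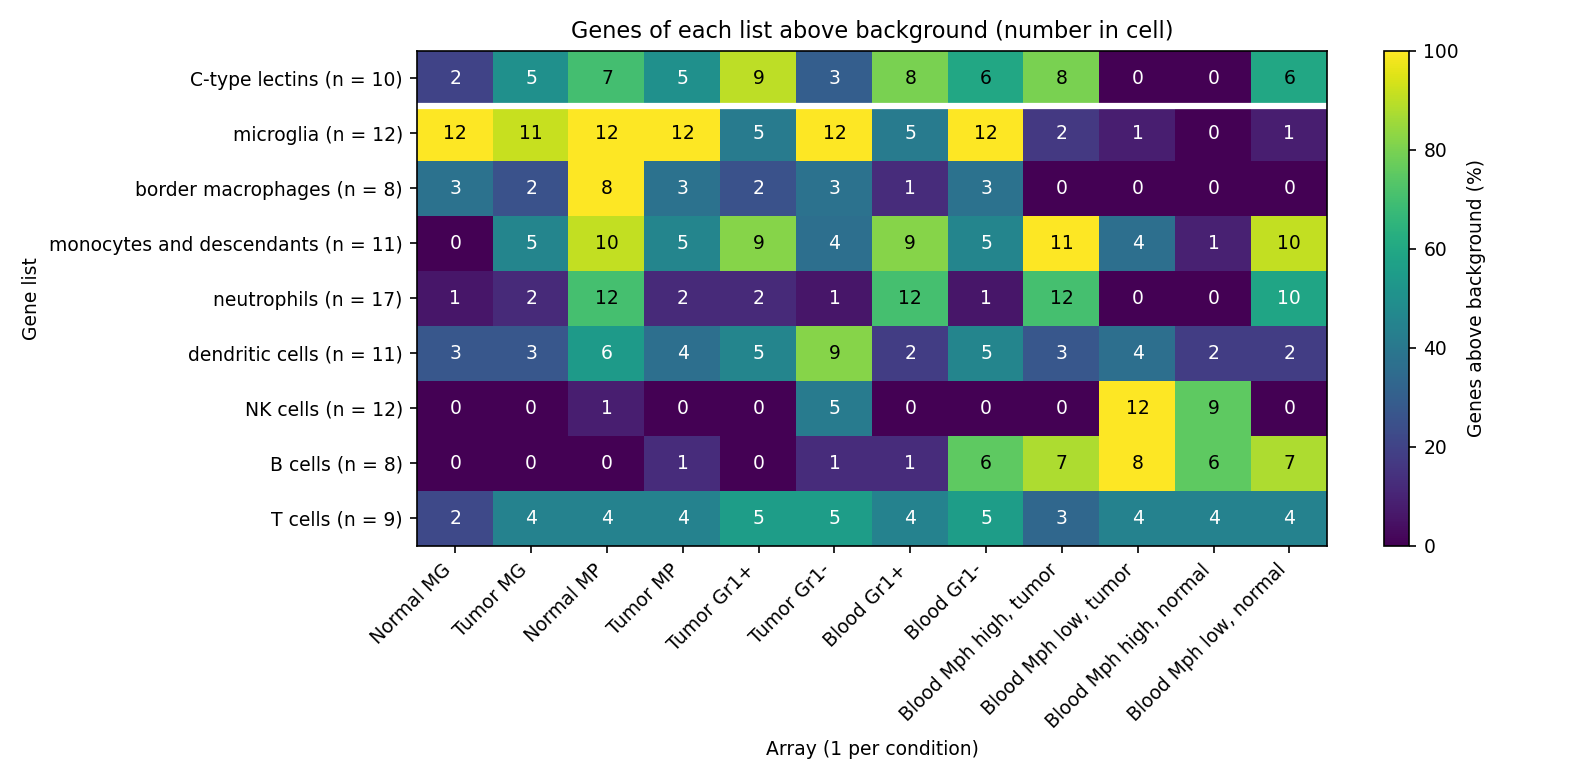
Number of genes above background (in each cell) and their share in percent (color) for the 10 C-type lectins and 8 lists of cell type markers (rows) on 12 arrays (columns, 1 array per condition). The lectins reached 9 of 10 on tumor Gr1+ cells and 0 of 10 on the 2 blood arrays with the most NK cell markers. On 1 of these, normal blood macrophage high, only 11.2% of all genes were above background.

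The number of lectins above background is given beside the share of all genes above it on the same array. It was 2 of 10 on normal MG (27.1% of all genes), 5 on tumor MG (26.3%), 7 on normal MP (36.3%) and 5 on tumor MP (32.0%). It was 9 on tumor Gr1+ (35.2%) and 3 on tumor Gr1- cells (39.1%), and 8 on blood Gr1+ (32.3%) and 6 on blood Gr1- cells (37.7%). Blood macrophage arrays had 8 for tumor-bearing high (34.9%), 6 for normal low (26.3%), 0 for tumor-bearing low (31.1%) and 0 for normal high (11.2%). The counts on normal MG, tumor Gr1- cells and normal blood macrophage high were thus near the share of all genes. Normal MG held Clec5a and Clec4a3 as its 2 lectins above background, and tumor Gr1- cells held the same 2 and Clec7a.

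**Figure D2:**
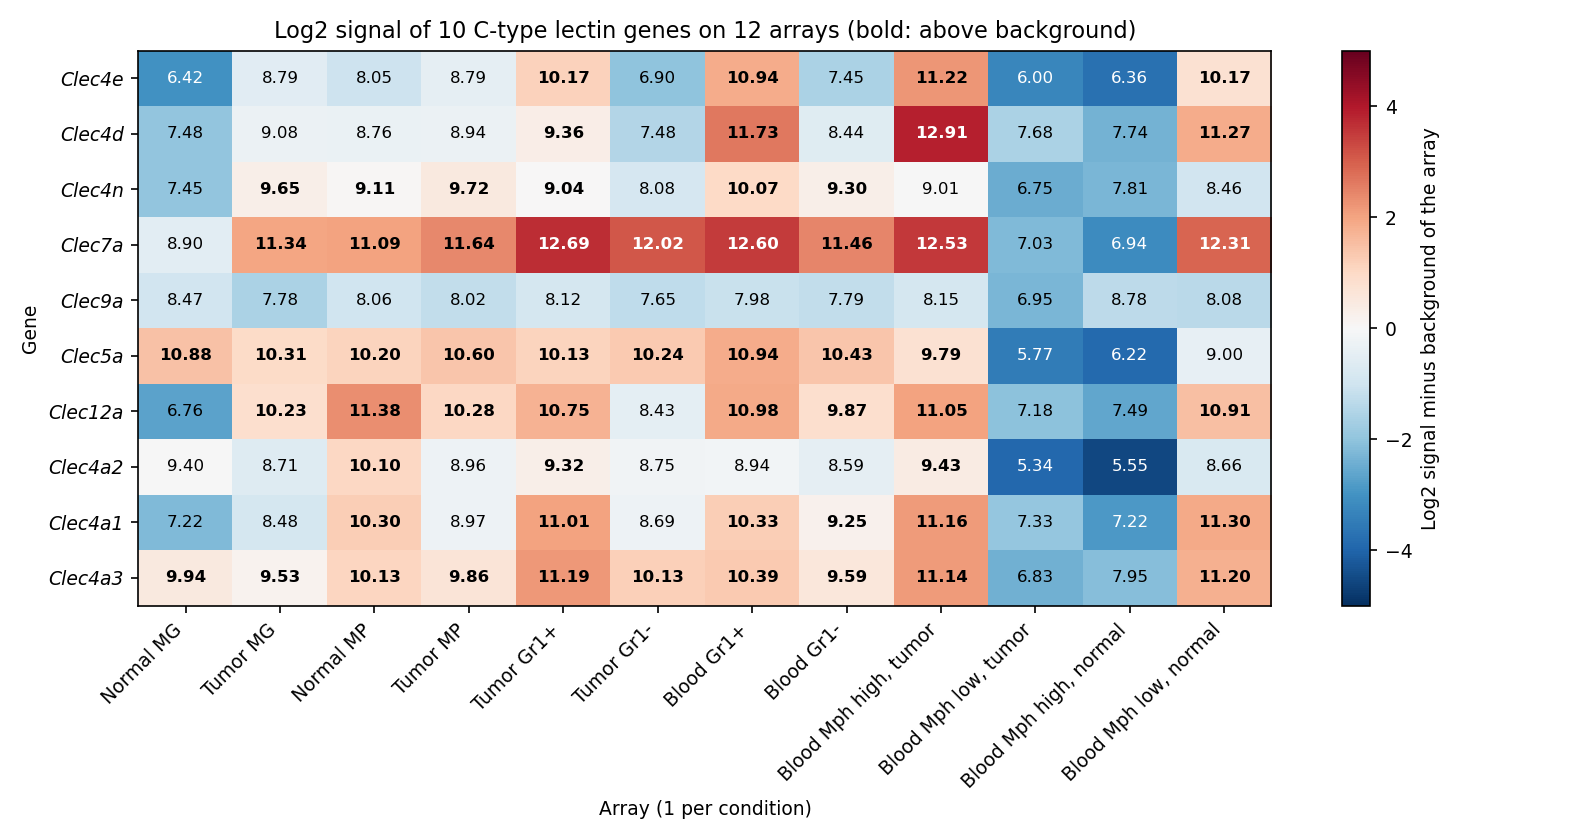
Log2 signal (number in each cell) of 10 C-type lectin genes (rows) on 12 arrays (columns, 1 array per condition), with the color giving the log2 signal minus the background level of that array and bold type marking values above it. Clec9a was above background on 0 arrays, and normal MG had 2 genes above background, Clec5a and Clec4a3.

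Among the receptors that signal through the Fc receptor gamma chain, Clec4e and Clec4d were brightest on arrays of Gr1+ and blood myeloid cells. Clec4e, which binds mycobacterial and other glycolipids, was at 6.42 on normal MG, 8.79 on tumor MG, 8.05 on normal MP, 8.79 on tumor MP, 10.17 on tumor Gr1+ and 6.90 on tumor Gr1- cells. In blood it was at 10.94 on Gr1+ and 7.45 on Gr1- cells, at 11.22 and 6.00 on macrophage high and low of tumor-bearing mice, and at 6.36 and 10.17 on macrophage high and low of normal mice. It was thus above background on 4 arrays, none of them MG or MP. Clec4d, the partner that forms a complex with Mincle, was at 7.48 on normal MG, 9.08 on tumor MG, 8.76 on normal MP, 8.94 on tumor MP, 9.36 on tumor Gr1+ and 7.48 on tumor Gr1- cells. Its blood values were 11.73 on Gr1+ and 8.44 on Gr1- cells, 12.91 and 7.68 on macrophage high and low of tumor-bearing mice, and 7.74 and 11.27 on those of normal mice. The same 4 arrays as for Clec4e were above background, with tumor Gr1+ cells only 0.34 over it. Clec4n, which binds fungal mannans, had another pattern. Its brain values were 7.45 on normal MG, 9.65 on tumor MG, 9.11 on normal MP, 9.72 on tumor MP, 9.04 on tumor Gr1+ and 8.08 on tumor Gr1- cells. Blood Gr1+ cells were highest, at 10.07, with Gr1- cells at 9.30, and the 4 blood macrophage arrays, from 6.75 to 9.01, were all below background.

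The receptors with an activating tail of their own differed from each other in detection. Clec7a, which binds fungal beta-glucan, was below background on normal MG, at 8.90, and above it on the other 5 brain arrays, at 11.34 on tumor MG, 11.09 on normal MP, 11.64 on tumor MP, 12.69 on tumor Gr1+ and 12.02 on tumor Gr1- cells. In blood it was at 12.60 and 11.46 on Gr1+ and Gr1- cells, 12.53 and 7.03 on macrophage high and low of tumor-bearing mice and 6.94 and 12.31 on those of normal mice. Besides normal MG, only the 2 blood arrays with many NK cell markers were below background. Clec9a, which binds the actin of dead cells and is known for cross-presenting dendritic cells, ranged from 6.95 to 8.78 and was below background on all 12 arrays. Xcr1, another gene known for these dendritic cells, was likewise above background on 0 arrays. It is 1 of 11 dendritic cell markers measured, and others of that list were detected, such as Tlr3 on 6 arrays and Cadm1 on 4. Of the 11, 9 were above background on tumor Gr1- cells and 2 to 6 on each other array.

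Clec5a was above background on every brain and Gr1 array. Its values were 10.88 on normal MG, 10.31 on tumor MG, 10.20 on normal MP, 10.60 on tumor MP, 10.13 on tumor Gr1+ and 10.24 on tumor Gr1- cells, and 10.94 and 10.43 on blood Gr1+ and Gr1- cells. On blood macrophages it was at 9.79 and 5.77 on high and low of tumor-bearing mice and 6.22 and 9.0 on high and low of normal mice, and only the first of these was above background.

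Of the inhibitory receptors, Clec12a was detected on 8 arrays. Clec12a, which recognizes uric acid crystals, was at 6.76 on normal MG, 10.23 on tumor MG, 11.38 on normal MP, 10.28 on tumor MP, 10.75 on tumor Gr1+ and 8.43 on tumor Gr1- cells. In blood it was at 10.98 and 9.87 on Gr1+ and Gr1- cells, 11.05 and 7.18 on macrophage high and low of tumor-bearing mice and 7.49 and 10.91 on those of normal mice. Normal MG and tumor Gr1- cells were the brain arrays below background. Clec4a2 was above background on 3 arrays, normal MP at 10.10, tumor Gr1+ at 9.32 and tumor-bearing blood macrophage high at 9.43, and was just under it on normal MG, at 9.40 against a background of 9.43. Its relative Clec4a3 was above background on 10 arrays, at 9.94 on normal MG, 9.53 on tumor MG, 10.13 on normal MP, 9.86 on tumor MP, 11.19 on tumor Gr1+ and 10.13 on tumor Gr1- cells. In blood Clec4a3 was below background only on the 2 arrays with many NK cell markers, at 6.83 and 7.95, and between 9.59 and 11.20 on the others. Clec4a1 was at 7.22 on normal MG, 8.48 on tumor MG, 10.30 on normal MP, 8.97 on tumor MP, 11.01 on tumor Gr1+ and 8.69 on tumor Gr1- cells, and so was above background in brain only on normal MP and tumor Gr1+. In blood Clec4a1 was at 10.33 and 9.25 on Gr1+ and Gr1- cells, 11.16 on tumor-bearing macrophage high and 11.30 on normal macrophage low, all above background.

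Tumor MG was compared with normal MG to see how the lectins of microglia differ in the tumor. A difference of at least 2-fold was found for 6 of the 10 lectins, all higher on the tumor MG array, against 2.44% of all genes higher and 3.61% lower. The median log2 difference of the 10 was 1.43, with -0.09 for all genes. Clec12a was higher by 3.46 on the log2 scale as deposited and at least 1.73-fold over background. Clec7a was higher by 2.44 and at least 3.75-fold, and Clec4n by 2.2 and at least 1.16-fold. The other 3 of the 6, Clec4e with 2.37, Clec4d with 1.61 and Clec4a1 with 1.26, were below background on both arrays. With the brighter array required to be above background the count was 3 of 10, against 1.37% of all genes higher by this rule and 1.72% lower. With values raised to background it was 1, Clec7a, against 0.657% of all genes higher and 0.838% lower. Clec5a and Clec4a3, both above background on both arrays, differed by -0.57 and -0.41. Of 12 microglia markers 6 were lower by at least 2-fold on tumor MG, and of 11 monocyte markers 7 were higher, with 0 of 11 monocyte markers above background on normal MG and 5 on tumor MG. Their part in the lectin differences was not tested.

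Tumor MP differed from normal MP the other way for part of the group. None of the 10 lectins was at least 2-fold higher in tumor MP and 3 were lower, against 1.65% and 3.58% of all genes. Those 3 were Clec4a1 with a log2 difference of -1.33, Clec4a2 with -1.13 and Clec12a with -1.10. For Clec4a1 and Clec4a2 tumor MP was below background, so normal MP was at least 2.10-fold and 1.82-fold higher. Clec12a was above background on both and was 2.14-fold lower. The activating receptors above background were on the other side of 0 but under 2-fold, with 0.61 for Clec4n, 0.56 for Clec7a and 0.40 for Clec5a. Markers of neutrophils were lower by at least 2-fold on tumor MP for 11 of 17 genes, those of border macrophages for 8 of 8 and those of monocytes for 6 of 11. Microglia markers were higher by at least 2-fold for 5 of 12 genes and lower for 0. What these lists contribute to the lectin differences was not tested.

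In normal brain, more of these receptors were higher on MP than on MG. This comparison shares an array with each of the previous 2. Of the 10, 6 were at least 2-fold higher in normal MP and 0 lower, against 4.35% and 3.11% of all genes. Clec12a had 4.62 as deposited and at least 3.85-fold, Clec4a1 3.07 and at least 1.82-fold, and Clec7a 2.18 and at least 3.14-fold. Clec4n had 1.66 as deposited, but its normal MP value, 9.11, was under the background level of the normal MG array, so no fold is given. Clec4e and Clec4d were below background on both arrays. All 12 microglia markers were lower in normal MP by at least 2-fold. Monocyte markers were higher for 11 of 11 genes, neutrophil markers for 12 of 17 and border macrophage markers for 6 of 8. The part of these lists in the lectin differences was not tested. In tumor brain 5 of the 10 lectins were above background on MG or MP, and these were at nearly the same levels on both arrays. Their differences of tumor MP from tumor MG ran from 0.05 for Clec12a to 0.33 for Clec4a3. The others, from -0.14 for Clec4d to 0.49 for Clec4a1, were below background on both arrays. Of all 10, 0 reached 2-fold in either direction, near the 0.186% and 0.155% of all genes that did. Tumor MG and tumor MP were the pair of arrays with the highest correlation over all genes (r = 0.974).

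Gr1+ cells were compared with Gr1- cells in tumor brain and in blood. In tumor brain 5 lectins were at least 2-fold higher in Gr1+ cells and 0 lower, against 2.88% and 5.12% of all genes. Clec4e was higher by 3.27 and at least 2.36-fold, Clec12a by 2.32 and at least 3.52-fold, and Clec4a1 by 2.32 and at least 4.22-fold. Clec4a3, above background on both arrays, was 2.08-fold higher. The fifth gene, Clec4d, was higher by 1.88 and at least 1.34-fold. Clec5a and Clec7a, above background on both, differed by -0.11 and 0.67. Markers moved with the same contrast, since 12 of 12 markers of microglia were lower by at least 2-fold in the Gr1+ cells and 8 of 11 of monocytes were higher. NK cell markers were lower for 12 of 12 genes, of which 5 were above background on tumor Gr1- cells. Their part was not tested.

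Each tumor population was also set against a brain macrophage or microglia array. Tumor Gr1+ cells against tumor MP gave 4 lectins at least 2-fold higher and 0 lower, against 2.46% and 4.81% of all genes. Clec4a1 was at least 3.43-fold and Clec4e at least 1.92-fold higher, and Clec4a3 and Clec7a, above background on both, were 2.52-fold and 2.06-fold higher. Tumor Gr1- cells against normal MG gave 3 higher and 0 lower, against 3.44% and 6.06%, of which only Clec7a was above background, at least 6.00-fold higher. Microglia markers were lower by at least 2-fold for 12 of 12 genes and monocyte markers higher for 9 of 11 in tumor Gr1+ cells against tumor MP. In tumor Gr1- cells against normal MG, NK cell markers were higher for 9 of 12, only 5 of them above background on the brighter array. Dendritic cell markers were higher for 6 of 11, all 6 above background on the brighter array, and microglia markers lower for 5 of 12. Their part was not tested.

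In blood 5 lectins were at least 2-fold higher in Gr1+ cells and 0 lower, against 3.2% and 4.31% of all genes. Clec4e was higher by 3.49 and at least 3.78-fold, and Clec4d by 3.29 and at least 6.50-fold. Clec7a, Clec12a and Clec4a1, above background on both arrays, were 2.21-fold, 2.16-fold and 2.11-fold higher. The blood Gr1- array is the one with 12 microglia markers above background, and without it no value can be had for this comparison. Of 17 neutrophil markers 14 were higher by at least 2-fold in the Gr1+ cells, as were 8 of 11 monocyte markers. Microglia markers were lower for 12 of 12 genes and B cell markers for 6 of 8. What these lists contribute to the lectin differences was not tested.

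**Figure D3:**
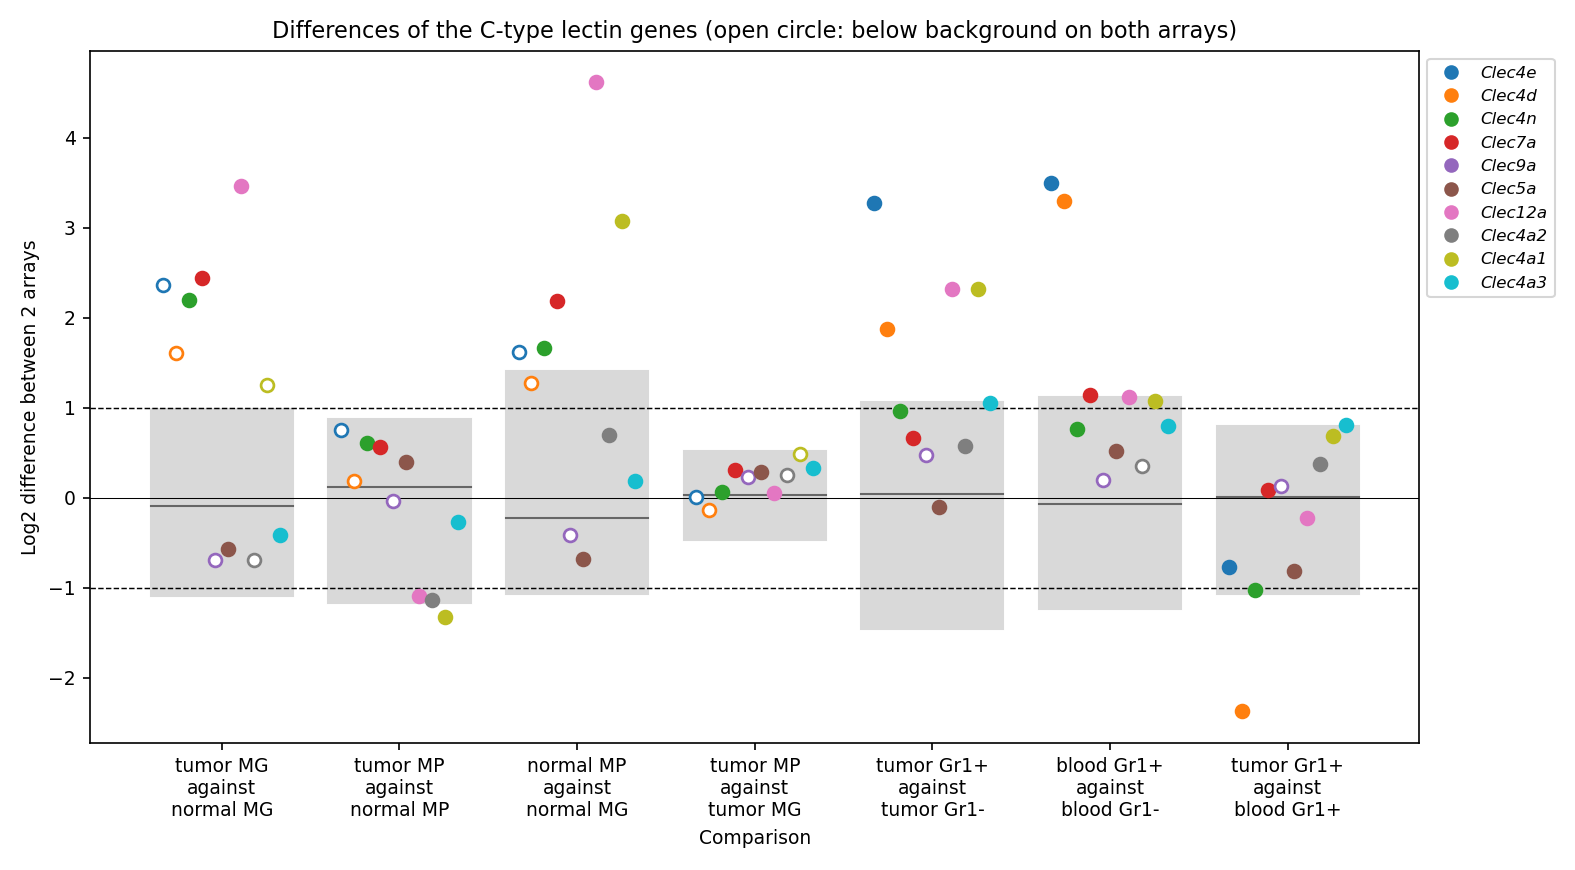
Log2 difference (vertical axis) of each of 10 C-type lectin genes (points) in 7 comparisons of 2 arrays (horizontal axis), with open circles for genes below background on both arrays, dashed lines at 2-fold, grey bars for the range of the central 95% of all 19938 genes and a line in each bar at their median. Comparisons that share an array are not independent. Filled points include genes below background on 1 array, whose differences are as deposited. Clec12a stood at 3.46 for tumor against normal MG and at -1.10 for tumor against normal MP.

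Tumor brain and blood were set side by side for cells of the same Gr1 label. In Gr1+ cells 0 lectins were at least 2-fold higher in tumor and 2 lower, against 1.02% and 2.97% of all genes. Clec4d was 5.18-fold lower in tumor Gr1+ cells and Clec4n 2.04-fold lower, the latter near the threshold. Clec4e, the partner of Clec4d, differed by -0.77, and Clec7a by 0.09. Of 17 neutrophil markers 14 were lower by at least 2-fold in the tumor, as were 3 of 7 markers of neurons, astrocytes and oligodendrocytes. The part of these markers was not tested. In Gr1- cells 0 were higher and 2 lower in tumor, against 0.547% and 2.44% of all genes. These were Clec12a with -1.43 and Clec4n with -1.22, both below background on tumor Gr1- cells, so that blood was at least 1.91-fold and 1.29-fold higher. The blood array is the Gr1- one that resembled tumor MP. In tumor Gr1- cells NK cell markers were higher by at least 2-fold for 11 of 12 genes, B cell markers lower for 7 of 8 and monocyte markers lower for 5 of 11. With the brighter array above background these counts were 5, 5 and 2 for the 3 marker lists. Their part was not tested.

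On blood macrophages the labels high and low went with opposite patterns in tumor-bearing and normal mice. In tumor-bearing mice 10 of 10 lectins were at least 2-fold higher on the high than on the low array, against 6.72% of all genes higher and 5.17% lower, and in normal mice 8 of 10 were at least 2-fold lower and 0 higher, against 11.9% and 4.37%. Set by label against normal mice, tumor-bearing high gave 9 of 10 higher and 0 lower, against 17.7% and 32.9% of all genes, and tumor-bearing low gave 10 of 10 lower and 0 higher, against 6.06% and 3.29%. These counts include genes below background on both arrays and exact differences from dim values. With values raised to background they fell to 6 higher in the first (all genes 3.58% higher and 1.49% lower), 4 lower in the second (0.296% and 2.17%), 5 higher in the third (3.96% and 6.45%) and 5 lower in the fourth (1.33% and 1.94%). Each of these 4 comparisons holds 1 array with 0 lectins above background, either tumor-bearing low, with 12 NK cell markers above it, or normal high, with 9 and with the high background level and low correlations given above, and the part of this in the counts was not tested. Crosswise, chosen after the values were seen, tumor-bearing high was set against normal low. Clec4d was then 3.12-fold higher in tumor-bearing mice and Clec4e 2.08-fold higher, with 0 lower, against 1.79% and 5.79% of all genes. The other 6 genes above background on at least 1 of these arrays lay between -0.14 and 0.78. Neutrophil markers were higher by at least 2-fold on tumor-bearing high for 9 of 17 genes, 8 of them above background, and their part was not tested. Tumor MP against tumor-bearing blood macrophage high gave 4 lectins at least 2-fold lower in the tumor and 0 higher, against 6.2% and 8.6% of all genes. Clec4d was lower by at least 12.8-fold, Clec4e by at least 3.97-fold, Clec4a1 by at least 3.80-fold and Clec4a3 by 2.44-fold. Clec4n and Clec5a stood on the other side, with 0.71 and 0.81. On tumor MP neutrophil markers were lower for 13 of 17 genes, monocyte markers lower for 8 of 11 and microglia markers higher for 12 of 12, and their part was not tested.

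Partners of these receptors were detected where the receptors were not. Fcer1g, Tyrobp, Syk, Malt1 and Ptpn6 were above background on all 12 arrays and Ptpn11 on 9, with normal MG at 9.41 and tumor MG at 9.29 just under it. Inpp5d, which encodes the lipid phosphatase SHIP-1, was above it on 11. Fcer1g ranged from 12.36 to 13.07 on the 8 brain and Gr1 arrays and Tyrobp from 11.94 to 12.50, while Syk ranged from 10.06 to 11.43. Card9 was above background on 2 arrays, blood Gr1+ cells at 9.19 and tumor-bearing blood macrophage high at 9.30. Among 24 measured adaptor and signalling genes 2 were higher and 1 lower by at least 2-fold on tumor MG, against 2.44% and 3.61% of all genes. With the brighter array above background it was 1 higher and 1 lower. The Src-family kinase Fgr was at least 1.66-fold higher and the lipid kinase subunit Pik3cg had a log2 difference of -1.05. For this list and those that follow, shares of all genes called are given above with each comparison. None of the 24 was at least 2-fold apart between tumor MP and normal MP. In Gr1+ against Gr1- cells 3 were higher and 2 lower in tumor and 2 higher and 1 lower in blood. Fgr had differences of 1.86 and 1.70, and the B cell linker Blnk, below background on Gr1+ cells in both, was at least 2.58-fold and 2.10-fold lower.

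**Figure D4:**
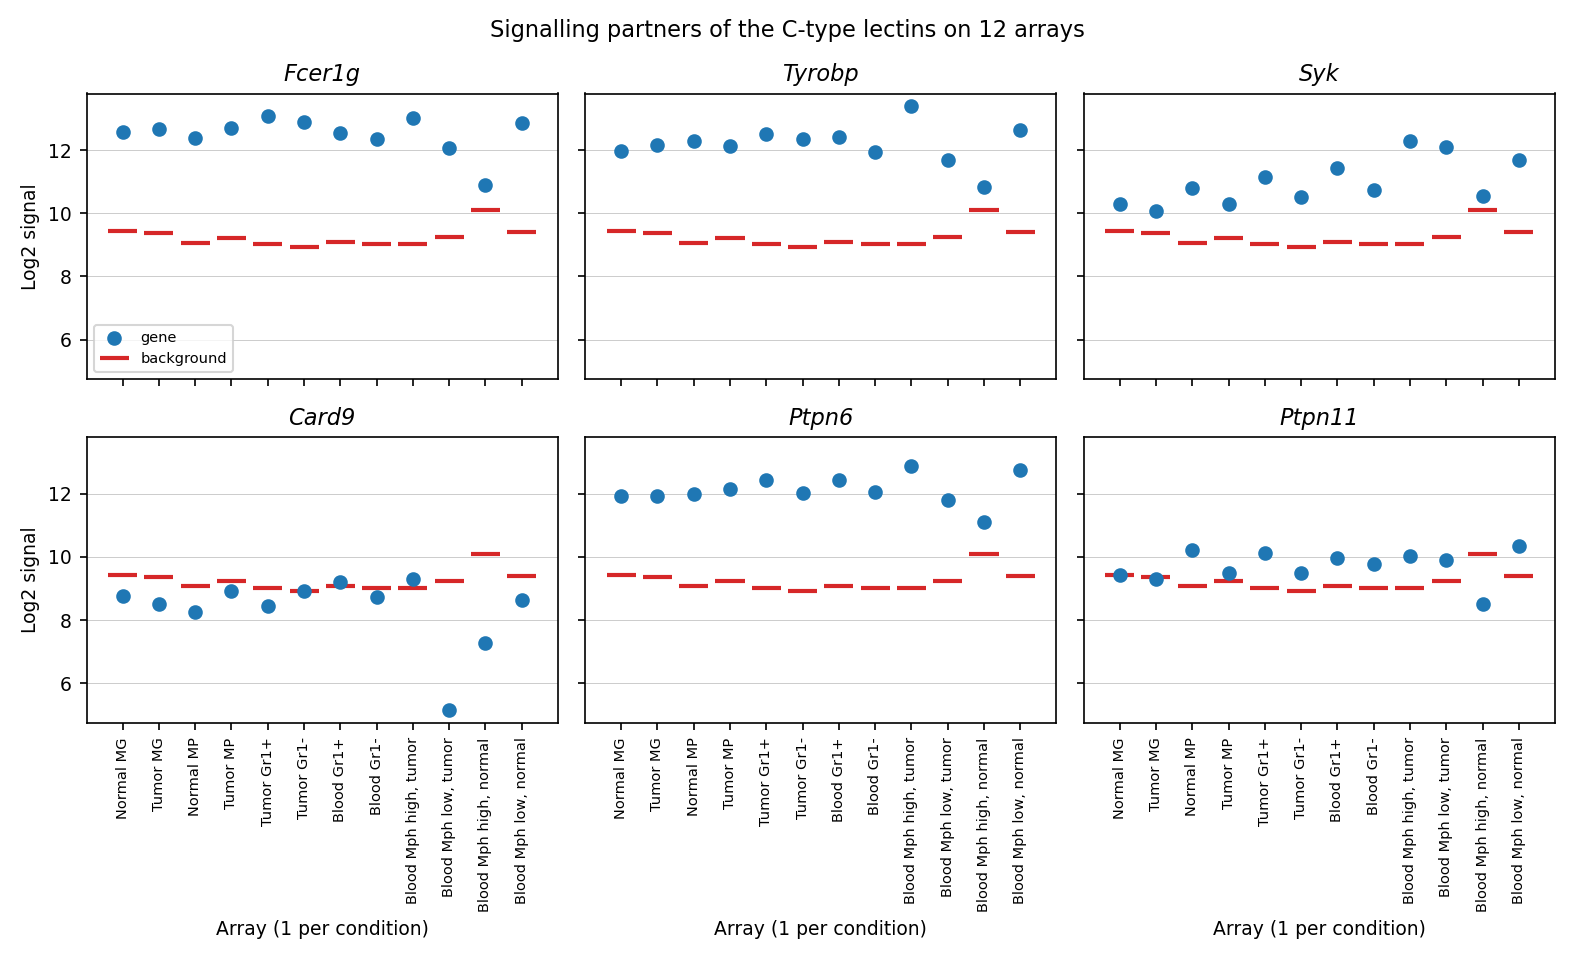
Log2 signal (vertical axis) of 6 signalling partners of the C-type lectins, 1 per panel, on 12 arrays (horizontal axis, 1 array per condition), with points for the gene and red bars for the background level of the array. Fcer1g, Tyrobp, Syk and Ptpn6 were above background on 12 arrays, Ptpn11 on 9 and Card9 on 2.

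Other inhibitory receptors and phosphatases, 9 measured, gave 1 gene higher by at least 2-fold and 0 lower on tumor MG. This was Cd300lf, an inhibitory receptor for lipids, at 10.64 on tumor MG and below background on normal MG, and so at least 2.30-fold higher. In tumor MP it had a difference of 1.12, and Cd300a was at least 1.70-fold lower. In Gr1+ against Gr1- cells 3 of 9 were higher in tumor and 2 in blood, with 0 lower in both, and the paired immunoglobulin-like receptor Pirb was higher by 1.47 and 1.92. Cytokine, chemokine and feedback genes known as output of Card9 and NF-kB, 18 measured, gave 8 genes higher by at least 2-fold and 0 lower on tumor MG, of which 4 were above background on tumor MG. Nfkbia, above background on both arrays, had a difference of 1.01. The other 3 were below background on normal MG, and Il1b was at least 2.42-fold, Nfkbiz at least 1.41-fold and Tnf at least 1.27-fold higher. In tumor MP 2 of the 18 were higher, 1 of them above background, and 0 lower. Il1a, at 10.32 in tumor MP and below background in normal MP, was at least 2.37-fold higher. In tumor Gr1+ against Gr1- cells 3 were higher and 4 lower, and 2 and 3 with the brighter array above background. Ccl3, above background on both arrays, had a difference of -2.41. Il1a and Ccl4, below background on tumor Gr1+ cells, were at least 4.83-fold and 2.91-fold lower. In blood 4 were higher and 2 lower, and Il1b had a difference of 2.61, while Cxcl2, below background on blood Gr1- cells, was at least 3.68-fold higher.

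The other measured C-type lectins, 30 in all, included 11 that were below background on every array, among them Clec4b2 and Clec12b from the same stretches of chromosome 6. On tumor MG 5 of the 30 were higher by at least 2-fold and 2 lower, against 2.44% and 3.61% of all genes. With the brighter array above background it was 1 higher and 1 lower. The first was Cd72, an inhibitory lectin known from B cells, at least 2.07-fold higher. In tumor MP 2 were higher, 1 of them above background, and 9 lower. The mannose receptor Mrc1, above background on both arrays and itself one of the border macrophage markers, had a difference of -2.80. Cd209a, Mgl2 and Clec10a were below background on tumor MP, and were at least 3.27-fold, 3.28-fold and 1.71-fold lower. In normal MP against normal MG 12 were higher, 11 of them above background on the brighter array, and 1 lower. Mgl2 and Cd209a were both at least 2.84-fold higher. In tumor Gr1+ against Gr1- cells 5 were higher and 4 lower, and 3 and 3 with the brighter array above background. Cd93 was at least 3.11-fold higher and Cd72, below background on Gr1+ cells, lower.

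The 10 lectins did not share 1 pattern. Pearson correlations between their values were computed for 45 pairs across arrays. These are descriptions over 12 populations that share the scaling of their arrays, and over 12 arrays their median was 0.64. Without the 3 arrays that stand out against their labels the median was 0.18 and 15 of 45 were below 0. Tumor-bearing blood macrophage low and normal blood macrophage high, both among these 3, had 0 of 10 lectins above background. The lower median thus depends on which arrays were left out. Values below background entered these correlations as deposited. Clec9a, below background on all 12 arrays, was in 4 of those 15 pairs. Clec4d and Clec4e were the pair with the highest value over 9 arrays, with r = 0.928. Pairs with Clec5a had a median of -0.41 over 9 arrays, and 6 of its 9 were below 0. Among 8232 genes above background on at least 3 arrays, the genes most like each lectin over 12 arrays were Trem1 for Clec4d (r = 0.973), Tnfaip2 for Clec4e (r = 0.980) and Msr1 for Clec4n (r = 0.928). For Clec5a it was Cebpa (r = 0.980), for Clec7a B430306N03Rik (r = 0.981) and for Clec12a Klra2 (r = 0.960). Nkiras2 was nearest to Clec4a1 (r = 0.978), Fzd7 to Clec4a2 (r = 0.974) and Ptpro to Clec4a3 (r = 0.972). Over 9 arrays Trem1 and Tnfaip2 were again the nearest to Clec4d and Clec4e, both with r = 0.992. Another gene came first for each of the other 7, among them Ski for Clec5a (r = 0.941), Tmpo for Clec7a (r = 0.986) and Tkt for Clec12a (r = 0.956).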

How the data were processed

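RNA of 12 flow-sorted populations was amplified in 2 cycles and hybridized, 1 array each. The authors computed expression in Expression Console software from Affymetrix, with RMA named in the submitters' processing notes. They deposited log2 values. Settings and genome build are not given in the sources used here. The number of arrays limits the precision.

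Values were used as deposited. Of 28944 probe sets, 21789 carried 1 symbol in the platform annotation, and the brightest of each gene left 19938 genes. In each of 18 comparisons, 1 array was subtracted from another, and genes were called at 2-fold or more (a log2 difference of 1), with no test. The lectins and gene lists were chosen with earlier results of these data known. All 10 lectins were named, with the 3 genes highest in Pearson r to each lectin above background on at least 3 arrays (the nearest is printed), and up to 4 genes of each family or pathway list with the largest difference among those above background on the brighter array. Xcr1, Clec4b2, Clec12b and the partners plotted were chosen after their values were seen. A planned search of protein motifs was not run. One gene of the study is not reported here. Promoters came from RefSeq (GRCm38.p6).

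The computation was tested on simulated data. As alternatives, arrays were centred on their medians or normalized by quantile or cyclic loess, probe sets of a gene were averaged, and rules used a floor at background, the 90th percentile as background and a brighter array above background. Python 3.11.15, numpy 2.4.6, pandas 2.3.3, scipy 1.17.1, R 4.3.3 and limma 3.58.1 were used.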

Additional observations from a re-analysis of the deposited data

Results flagged for a closer look

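Clec12a had opposite signs in the tumor comparisons of the 2 brain populations, with 3.46 on the log2 scale for tumor MG minus normal MG and -1.10 for tumor MP minus normal MP. The difference was not tested, since each condition has 1 array. With the dimmer value raised to background the first was 0.79.

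Blood macrophage high minus low had opposite signs in tumor-bearing and normal mice for 9 of the 10 lectins, all but Clec9a. For 6 of them both differences were at least 2-fold with the brighter array above background. As deposited, Clec4a1 had 3.82 and -4.08, Clec4a3 4.31 and -3.25, Clec4d 5.22 and -3.53, Clec4e 5.22 and -3.80, Clec7a 5.51 and -5.37 and Clec12a 3.86 and -3.43. All 6 were below background on the dim array of each pair, so these sizes are not measured. With values raised to background they were 1.90 and -1.21 for Clec4a1, 1.89 and -1.11 for Clec4a3, 3.65 and -1.18 for Clec4d, 1.97 and -0.077 for Clec4e, 3.28 and -2.22 for Clec7a and 1.79 and -0.82 for Clec12a. These differences were not tested. The dim array of each pair was the one with 12 and 9 of 12 NK cell markers above background, and whether labels and arrays match was not tested.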

How the results depend on the processing

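Counts of lectins past 2-fold depended mainly on how values under background were treated. For tumor MG against normal MG, 6 higher became 3 with the brighter array above background, 2 with values raised to the 90th percentile and 1 with values raised to background. For normal MP against normal MG, 6 higher became 3 with the 90th percentile and 2 with background. For tumor Gr1- against blood Gr1- cells, 2 lower became 1 and 0. For tumor Gr1+ against blood Gr1+ cells, 2 lower became 1 under quantile normalization. Single log2 differences changed sign where values were raised to the 90th percentile: -0.45 for Clec4a1 in tumor Gr1- against normal MG, -0.32 for Clec4a2 and -0.75 for Clec4n in blood macrophage high of tumor-bearing against normal mice, -0.39 for Clec4d and -0.034 for Clec4n in normal MP against normal MG, and -0.062 for Clec4d in tumor against normal MG. With values raised to background they did so for Clec4a2 (-0.65) and Clec5a (-0.30) in blood macrophage high of tumor-bearing against normal mice, and for Clec4n (-0.32) in normal MP against normal MG. These settings replace a dim value by the level of its own array, which differs between arrays. Median centring, quantile and cyclic loess normalization reversed 0 of the lectins' differences, and the mean of probe sets moved none, since each lectin has 1. Of 180 lectin differences, 14 were counted as moved under quantile normalization and 13 under cyclic loess. Of 36 counts past 2-fold, 5 were counted as moved under quantile normalization and 2 under median centring. Another scaling moved the median difference of all genes by over 0.1 in some comparisons, as from -0.22 to -0.076 for normal MP against normal MG under quantile normalization, where the median of the lectins became 1.74. A comparison with both arrays under background has no value under a floor, and none can be had without blood Gr1- cells where that array is the reference. The crosswise comparison of blood macrophages and the use of 9 arrays were chosen after seeing the data. No paired analysis was possible because each condition has 1 array. With 1 array per condition and no replicate error, small differences and genes near background cannot be told from noise between arrays.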
